A study of Mus musculus with 6 samples.

Results

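Leukocyte lineage marker genes were followed in the muscle of *Tarsl2*-deleted mice. The set holds 35 of the 53084 genes in the count table and was chosen by gene name as markers of a lineage, with no value in the rule, although earlier results of these data were known: 5 pan-leukocyte genes, 19 monocyte and macrophage genes, 6 T and NK cell genes, 3 mast cell genes and 2 dendritic cell genes. Muscle RNA of 3 *Tarsl2*+/+ and 3 *Tarsl2*-/- animals was sequenced, with 1 library each. The mice were male C57BL/6 animals that were 6 weeks old and ate a standard diet. The *Tarsl2*-/- mice carried a CRISPR/Cas9 deletion around exon 3 of *Tarsl2*, a gene related to that of threonyl-tRNA synthetase. The deletion was made in zygotes, so it was in every cell of the animal, leukocytes included. Which muscle was taken was not given in the sources used here, and no leukocyte was isolated: the values are those of leukocyte transcripts in whole tissue RNA. The comparison asked whether these transcripts differed between the genotypes.

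Resting skeletal muscle is made mostly of fibres, and the leukocytes it holds are chiefly resident macrophages between the fibres, with mast cells along vessels, a few dendritic cells and few lymphocytes. Macrophages clear debris through lysosomal hydrolases and take up antibody-coated material through Fc receptors, which signal through small adaptor chains that carry an immunoreceptor tyrosine-based activation motif (ITAM). They depend for survival on colony stimulating factor 1, which acts through the receptor encoded by *Csf1r*. Many genes of the myeloid lineages are switched on by the transcription factor PU.1, the product of *Spi1*, whose binding sites often, but not always, contain GAGGAA.

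The sequences upstream of 4 genes from 3 of the lineages are shown, picked with their values known. *Ctss*, *Cd53* and *Ms4a7* were lower in *Tarsl2*-/- muscle at the threshold and *Cma1* was not. Whether the motif has a part in any difference between the genotypes was not tested. Each is the 250 bases before an annotated start site in RefSeq on GRCm38.p6 (GRCm38 is mm10), written 5′ to 3′ on the strand of the gene, with GAGGAA or its reverse complement TTCCTC in capitals. *Ctss* (cathepsin S) lies on the plus strand with its window at chr3:95526536-95526785, *Cd53* (a tetraspanin of leukocytes) on the minus strand at chr3:106790150-106790399, *Ms4a7* (a membrane protein of macrophages) on the minus strand at chr19:11336147-11336396, and *Cma1* (mast cell chymase) on the minus strand at chr14:55944676-55944925. No exon base of the annotation falls in these 4 windows.
Ctss: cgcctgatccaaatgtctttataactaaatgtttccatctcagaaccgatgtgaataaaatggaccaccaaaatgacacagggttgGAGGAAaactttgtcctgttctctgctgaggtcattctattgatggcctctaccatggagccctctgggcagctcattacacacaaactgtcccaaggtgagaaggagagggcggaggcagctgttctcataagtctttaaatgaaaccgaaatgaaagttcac
Cd53: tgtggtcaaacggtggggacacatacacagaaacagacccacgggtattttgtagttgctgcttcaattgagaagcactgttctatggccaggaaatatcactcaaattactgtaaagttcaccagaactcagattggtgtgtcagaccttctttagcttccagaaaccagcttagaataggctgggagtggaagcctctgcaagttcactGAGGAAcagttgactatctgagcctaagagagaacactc
Ms4a7: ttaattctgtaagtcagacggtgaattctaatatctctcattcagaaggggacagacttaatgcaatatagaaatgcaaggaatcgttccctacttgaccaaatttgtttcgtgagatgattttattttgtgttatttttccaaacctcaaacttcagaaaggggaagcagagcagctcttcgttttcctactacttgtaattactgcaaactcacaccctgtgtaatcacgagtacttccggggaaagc
Cma1: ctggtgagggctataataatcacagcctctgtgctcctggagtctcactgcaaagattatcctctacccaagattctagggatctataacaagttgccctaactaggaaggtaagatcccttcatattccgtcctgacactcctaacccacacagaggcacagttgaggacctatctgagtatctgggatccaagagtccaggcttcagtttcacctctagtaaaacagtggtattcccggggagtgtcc

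The motif began 164 bases before the start of *Ctss* and 39 bases before that of *Cd53*, and its letters were not in the windows of *Ms4a7* and *Cma1*. RefSeq windows were at hand for 29 of the 35 genes. Of these, 13 (44.8%) held the motif on either strand in at least 1 window, against 25.9% of all 27025 genes and 23.3% of all 32851 windows of the same length. The motif was in 3 of 4 pan-leukocyte genes, 7 of 15 monocyte and macrophage genes, 3 of 5 T and NK cell genes, none of 3 mast cell genes and neither dendritic cell gene. It was in 4 of 6 genes with an edgeR adjusted p under 0.05 and in 9 of 23 others. The window of *Lyz2*, the gene with the smallest adjusted p of the set, did not hold it. *Cd14*, *Cd52*, *Adgre1*, *Tyrobp*, *Cd4* and *Csf1r* had no entry. A match or its absence describes these letters only, so a window without them may still hold a binding site. Binding was not measured here. *Spi1* itself had 28.9 ± 6.28 CPM (TMM-scaled counts relative to the library total; SD, n = 3) in *Tarsl2*+/+ muscle and 20.4 ± 1.03 in *Tarsl2*-/- muscle, with a log2 fold change of -0.51 that did not pass the threshold (edgeR adjusted p = 0.0798).

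Library totals ranged from 16176591 to 20123767 counts, at which 3 counts are between 0.146 and 0.187 CPM, a limit that covers counting error only. The libraries are named by the numbers in their labels, 583, 584 and 595 for *Tarsl2*+/+ and 588, 589 and 591 for *Tarsl2*-/-, taken here as mouse numbers. The label of 589 opens with KOT1 and those of 588 and 591 with KO1, a difference that the labels do not explain. If they were not separate mice, p-values measure only the spread between these libraries. *Tarsl2* had 456, 605 and 464 counts in the *Tarsl2*+/+ libraries and 40, 30 and 37 in the *Tarsl2*-/- libraries (log2 fold change -3.81, standard error 0.16, edgeR adjusted p = 6.45e-07), so the genotype labels held. The labels name muscle as the tissue but a retinal extraction in the protocol, and 10 retinal markers had at most 7 counts in any library, whereas 10 muscle fibre markers summed to between 83300 and 100000 CPM. Library 583 stood apart in genes outside the set. Summed neutrophil markers were 77.9 CPM there, against 7.97 and 25.7 CPM in the other *Tarsl2*+/+ libraries and 7.41 to 8.05 CPM in *Tarsl2*-/- muscle, and 7 of 8 B cell genes were highest in it. Values without it, or their range over the fits that leave out each library, are given beside results that it changed. Of all 15075 genes tested, 207 were lower and 135 higher in *Tarsl2*-/- muscle, and the median log2 fold change was 0.00253.

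Leukocyte genes, most of them of macrophages, were lower in *Tarsl2*-/- muscle. Of the 35 genes, 29 had enough counts to be tested, and 9 of these were lower at an adjusted p under 0.05 and none higher, against 1.37% of all tested genes that were called lower. The 9 were *Lyz2*, *Ctss*, *Ms4a7*, *Fcgr3*, *Csf1r*, *Tyrobp*, *Cd53*, *Adgre1* and *Laptm5*: 7 monocyte and macrophage genes and 2 pan-leukocyte genes. Every *Tarsl2*-/- library lay below every *Tarsl2*+/+ library for 24 of the 35 genes, 22 of them among the 29 tested (75.9%), which held for 12.0% of all tested genes. The other 11 genes overlapped between genotypes. The 29 tested genes had a median log2 fold change, taken as *Tarsl2*-/- over *Tarsl2*+/+, of -0.62. All 29 values were negative, against 49.6% of all tested genes. Of the 29, 24 had an unadjusted p under 0.05 with edgeR, against 2983 of all 15075 tested genes. The genes are transcripts of partly the same cells and are not independent of each other. In whole tissue RNA, fewer cells of a type and less RNA per cell cannot be told apart, nor can either be told apart from more RNA from other cells.

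**Figure D1:**
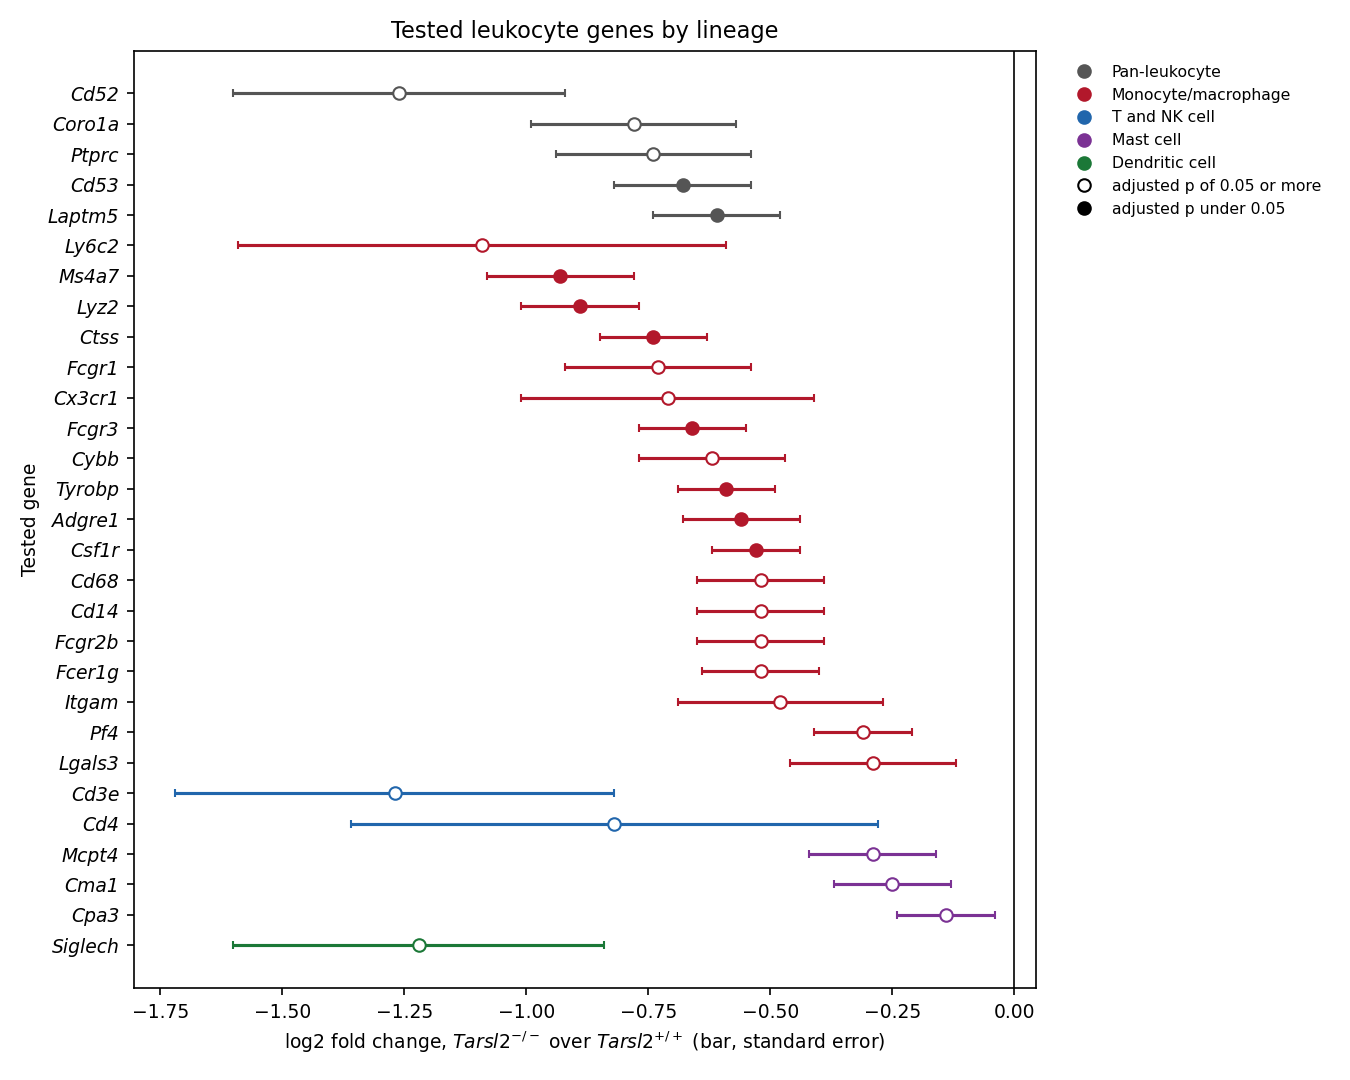
Log2 fold change (*Tarsl2*-/- over *Tarsl2*+/+, horizontal axis) of each of the 29 tested leukocyte genes, with its standard error as a bar and colours for the 5 lineages. All 29 points lie left of 0, the 9 filled points (adjusted p under 0.05) lie between -0.93 and -0.53, and the 3 mast cell genes lie nearest to 0 with *Pf4* and *Lgals3*.

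*Lyz2*, which encodes the lysozyme that macrophages and neutrophils secrete against bacterial walls, was the most abundant leukocyte transcript per length, at 692 CPM per kilobase in *Tarsl2*+/+ and 375 in *Tarsl2*-/- muscle. It had 945, 823 and 965 CPM in the *Tarsl2*+/+ libraries 583, 584 and 595, and 476, 436 and 567 CPM in the *Tarsl2*-/- libraries 588, 589 and 591. All *Tarsl2*-/- values were thus below the lowest *Tarsl2*+/+ value. The means were 911 ± 76.9 and 493 ± 67.0 CPM (SD, n = 3), a log2 fold change of -0.89 (standard error 0.12, edgeR adjusted p = 0.004). This was the 1 gene of the set that passed the threshold in all 6 fits with a library left out, with log2 fold changes from -1.0 to -0.80. Its exons, on GRCm38 chromosome 10 from 117277331 to 117282321, share 2.0% of their 100-base stretches with the neighbouring *Lyz1*, the lysozyme of Paneth cells, which had 15.1, 19.3 and 34.2 CPM against 10.6, 12.6 and 20.6 CPM with overlap (log2 fold change -0.64, edgeR adjusted p = 0.249).

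Lysosomal and membrane proteins of macrophages came next. *Ctss*, the cathepsin that trims the invariant chain in antigen-presenting cells, had 51.3, 43.9 and 49.5 CPM in *Tarsl2*+/+ and 29.1, 24.9 and 32.6 CPM in *Tarsl2*-/- muscle. The genotypes did not overlap, and its log2 fold change was -0.74 (standard error 0.11, edgeR adjusted p = 0.00901), and only the fit without library 583 missed the threshold (-0.70, adjusted p = 0.0508). *Ms4a7*, a 4-span membrane protein of tissue macrophages, had 21.7, 19.1 and 23.5 CPM against 12.7, 8.55 and 12.3 CPM. This was the largest drop among the 9, to 52.4% of the *Tarsl2*+/+ mean (log2 fold change -0.93, standard error 0.15, edgeR adjusted p = 0.0113), and it missed the threshold without library 583 (adjusted p = 0.0541) or 595 (adjusted p = 0.0503). *Cd68*, a lysosomal glycoprotein of phagocytes, had 19.3 ± 1.53 and 13.4 ± 2.30 CPM without overlap, but its log2 fold change of -0.52 did not pass (edgeR adjusted p = 0.0638). *Lgals3*, which encodes the secreted lectin galectin-3, overlapped between genotypes at 34.5 ± 8.29 and 28.2 ± 5.66 CPM.

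Of the 3 Fc gamma receptors and the 2 ITAM adaptors, of which *Fcer1g* serves the Fc receptors and *Tyrobp* serves other receptors of myeloid and NK cells, *Fcgr3* and *Tyrobp* were lower at the threshold (1.37% of all tested genes were). None of the 5 overlapped between genotypes, which held for 12.0% of all tested genes. *Fcgr3*, a low-affinity activating receptor for IgG, had 61.5, 56.8 and 65.5 CPM in *Tarsl2*+/+ and 39.9, 33.4 and 42.7 CPM in *Tarsl2*-/- muscle. The highest *Tarsl2*-/- library was below the lowest *Tarsl2*+/+ library (log2 fold change -0.66, standard error 0.11, edgeR adjusted p = 0.0113), and the threshold was missed without library 583 (adjusted p = 0.0541) or 595 (adjusted p = 0.0503). *Tyrobp*, which encodes the adaptor DAP12, had 89.7, 75.2 and 87.4 CPM against 56.0, 49.5 and 61.8 CPM. These did not overlap (log2 fold change -0.59, standard error 0.10, edgeR adjusted p = 0.0174), and the call held only without library 584 or 591, with adjusted p-values from 0.0555 to 0.0839 without any other. *Fcer1g*, the common Fc receptor gamma chain, *Fcgr2b*, the inhibitory receptor, and *Fcgr1*, the high-affinity receptor, had log2 fold changes of -0.52, -0.52 and -0.73 (edgeR adjusted p = 0.0518, 0.0566 and 0.0678). *Fcer1g* was thus the first gene outside the threshold, at 44.1 ± 6.03 and 30.7 ± 3.78 CPM, and *Laptm5* (edgeR adjusted p = 0.0399) the last inside it. *Fcgr3* and *Fcgr2b* share at most 2.5% of their 100-base stretches.

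**Figure D2:**
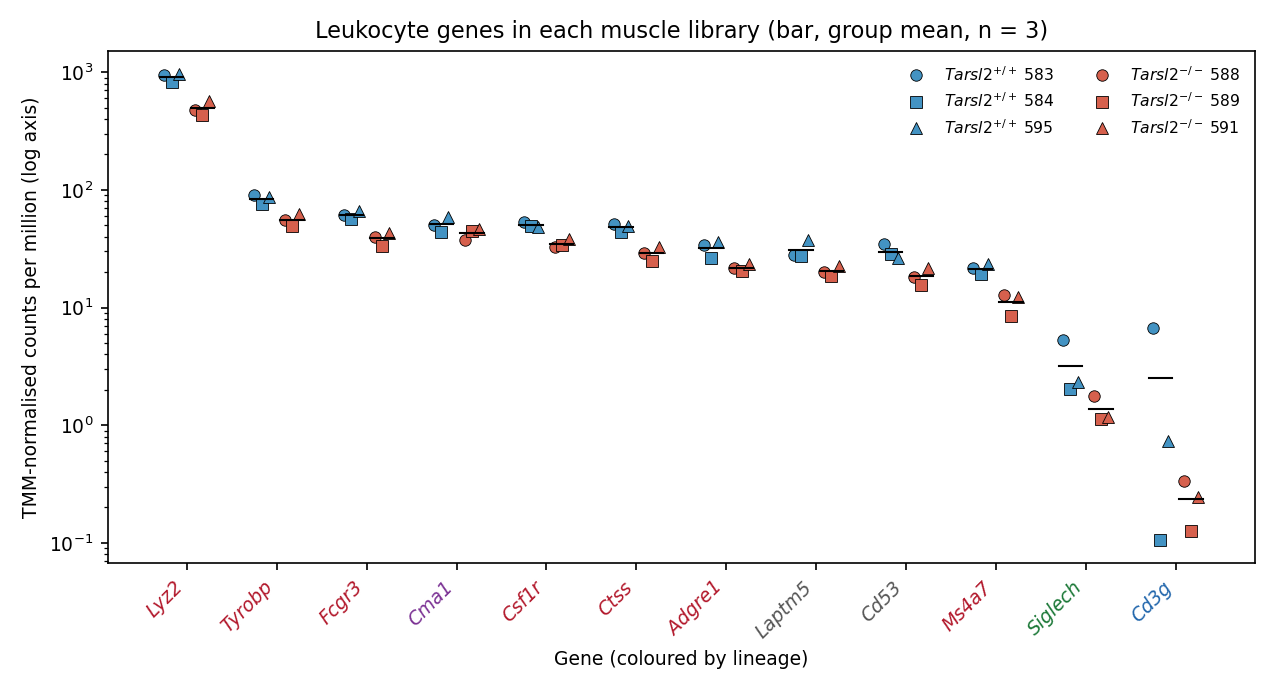
TMM-normalised CPM (log axis) in each of the 6 libraries for the 9 genes past the threshold and for the most abundant gene per length of the remaining lineages (*Cma1*, *Siglech* and *Cd3g*), with the mean of each genotype as a bar (n = 3). The 9 genes separate by genotype, from *Lyz2* at 436 to 965 to *Ms4a7* at 8.55 to 23.5, whereas *Cma1* overlaps and *Cd3g* is high in library 583 alone.

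*Csf1r* and *Adgre1*, which encode surface receptors of macrophages, were also lower at the threshold, whereas *Cd14*, *Fcgr1*, *Itgam* and *Cx3cr1* did not pass it. *Csf1r*, the receptor for colony stimulating factor 1 and interleukin 34, had 53.0, 49.5 and 48.8 CPM in *Tarsl2*+/+ and 32.4, 34.2 and 38.1 CPM in *Tarsl2*-/- muscle. The spread within each genotype was small (SD 2.28 and 2.92) and the log2 fold change was -0.53 (standard error 0.09, edgeR adjusted p = 0.0167), with adjusted p-values of 0.0787, 0.0555 and 0.0606 without library 583, 588 or 589. The exons of *Hmgxb3* on the opposite strand cover 15.1% of its exon bases, and whether the counting used strand was not given. *Adgre1*, which encodes the F4/80 antigen of mouse macrophages, had 34.0, 26.6 and 35.8 CPM against 21.5, 20.6 and 23.3 CPM. Its values did not overlap (log2 fold change -0.56, standard error 0.12, edgeR adjusted p = 0.0355), but the call held in 1 of 6 fits with a library left out, the one without 584 (adjusted p from 0.0781 to 0.142 in the others). *Cd14*, the lipopolysaccharide co-receptor, and *Cybb*, the catalytic subunit of the phagocyte NADPH oxidase, did not overlap either, at 13.2 ± 1.65 against 9.21 ± 0.978 CPM and 13.0 ± 2.24 against 8.41 ± 0.742 CPM (edgeR adjusted p = 0.0676 and 0.0541). *Pf4*, a chemokine that platelets store and resident macrophages also transcribe, was the most abundant of this lineage per length after *Lyz2* and one of the least reduced, at 115 ± 9.83 and 93.2 ± 9.89 CPM (log2 fold change -0.31, edgeR adjusted p = 0.13).

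*Itgam*, *Cx3cr1*, *Ly6c2* and *Itgax* were the scarcest per length of the monocyte and macrophage genes in the set. *Ly6c2*, the Ly6C antigen of blood monocytes, had 26, 9 and 16 counts in *Tarsl2*+/+ and 7, 4 and 13 counts in *Tarsl2*-/- muscle, with overlap, and it shares 5.8% of its 100-base stretches with *Ly6c1*, an endothelial gene that was far more abundant (138 ± 17.1 and 117 ± 15.5 CPM). *Cx3cr1*, the fractalkine receptor, had 2.62 ± 1.04 and 1.60 ± 0.131 CPM without overlap (log2 fold change -0.71, edgeR adjusted p = 0.218). *Itgam*, the CD11b integrin chain, overlapped at 5.06 ± 0.932 and 3.62 ± 0.816 CPM. It is listed on 2 rows, of which the second had no count in any library, and 64.3% of its 100-base stretches are shared with that second gene model. How reads shared by the 2 rows were counted is not given, so the level of *Itgam* may be too low. *Itgax*, the CD11c chain, had between 2 and 13 counts per library and was not tested. Outside the set, *Ccr2*, a chemokine receptor of recruited monocytes, was less scarce, at 13.1 ± 3.67 and 7.98 ± 2.15 CPM. It did not overlap and did not pass the threshold (log2 fold change -0.71, edgeR adjusted p = 0.106). Over all 19 monocyte and macrophage genes, 7 were lower at an adjusted p under 0.05 (1.37% of all tested genes), 15 did not overlap (12.0% of all tested genes), and the median of the 18 tested was -0.57. Their summed level in *Tarsl2*-/- muscle was 60.1% of the *Tarsl2*+/+ mean, and 69.5% without *Lyz2*.

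The pan-leukocyte genes are not tied to a single lineage. Of these, 2 of 5 were lower at the threshold and 4 of 5 did not overlap, against 1.37% and 12.0% of all tested genes. Their median log2 fold change was -0.74, and it was -0.56 without library 583 and -0.95 without 584. *Cd53* had 34.7, 28.4 and 26.4 CPM in *Tarsl2*+/+ and 18.3, 15.5 and 21.8 CPM in *Tarsl2*-/- muscle. The genotypes were separate (log2 fold change -0.68, standard error 0.14, edgeR adjusted p = 0.0305), a difference that passed without library 584 or 591 and gave adjusted p-values from 0.054 to 0.131 without each of the others. *Laptm5*, a lysosomal protein that lowers antigen receptor levels, had 28.2, 27.4 and 37.6 CPM against 20.1, 18.5 and 22.5 CPM. The lowest *Tarsl2*+/+ library exceeded the highest *Tarsl2*-/- library (log2 fold change -0.61, standard error 0.13, edgeR adjusted p = 0.0399), and the call held in the fit without 584 and in none of the other 5 (adjusted p from 0.0719 to 0.128).

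The 3 remaining pan-leukocyte genes did not pass the threshold and were spread more widely among the *Tarsl2*+/+ libraries. *Ptprc*, the CD45 phosphatase, had 16.8, 9.24 and 14.5 CPM against 8.36, 6.92 and 8.89 CPM (log2 fold change -0.74, edgeR adjusted p = 0.0753). *Coro1a*, an actin regulator of lymphocytes and phagocytes, had 57.7, 28.4 and 35.6 CPM against 24.6, 21.1 and 24.9 CPM (log2 fold change -0.78, edgeR adjusted p = 0.075). *Cd52*, a small surface glycoprotein abundant on lymphocytes, had 29.8, 9.35 and 16.7 CPM against 6.41, 6.61 and 10.1 CPM and overlapped (log2 fold change -1.26, edgeR adjusted p = 0.0766). All 3 were highest in library 583. Without it their log2 fold changes were -0.56, -0.44 and -0.76, and without library 584 each passed the threshold (adjusted p = 0.0097, 0.016 and 0.0097). The summed pan-leukocyte level was 167, 103 and 131 CPM in *Tarsl2*+/+ and 77.9, 68.7 and 88.2 CPM in *Tarsl2*-/- muscle.

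Transcripts of the 6 T and NK cell genes in the set were scarce in all libraries but 583. *Cd3g*, a chain of the T cell receptor complex and the most abundant of the 6 per length, had 114, 2 and 14 counts in *Tarsl2*+/+ and 6, 2 and 5 counts in *Tarsl2*-/- muscle. These are 6.66, 0.106 and 0.735 CPM against 0.334, 0.125 and 0.243 CPM, so library 583 alone was high and the genotypes overlapped. All 6 genes were highest in library 583: their sum was 17.8 CPM there, 2.18 and 3.15 CPM in libraries 584 and 595, and 2.12, 1.75 and 1.65 CPM in *Tarsl2*-/- muscle. *Cd8a*, a coreceptor of cytotoxic T cells, had 31 counts in library 583, 0 in 584, 588 and 589, where 0 counts allow up to 0.159, 0.167 and 0.187 CPM, and 2 and 3 counts in 595 and 591. *Lck*, the kinase that starts T cell receptor signalling, had 85 counts in 583 and 4 to 8 elsewhere.

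Only *Cd3e* and *Cd4* could be tested among these 6. *Cd3e*, another chain of the receptor complex, had 18, 17 and 17 counts against 11, 7 and 3 counts without overlap (log2 fold change -1.27, standard error 0.45, edgeR adjusted p = 0.153). Its level in library 583 was thus close to that in 584 and 595. *Cd4*, the coreceptor of helper T cells, which some macrophages also transcribe, overlapped, and its log2 fold change of -0.82 (edgeR adjusted p = 0.434) became 0.15 without library 583. *Nkg7*, a granule protein of NK and cytotoxic T cells, was not tested and had 15, 8 and 6 counts against 1, 2 and 1 counts. Neither of the 2 tested genes passed with edgeR or limma-voom. DESeq2 called none of the 6 but gave no adjusted p for *Cd8a* and *Nkg7*. Of the 2 tested, 1, *Cd3e*, had an unadjusted p under 0.05 with edgeR (0.0169), as did 2983 of all 15075 tested genes. Without a filter on low counts *Cd3g*, *Cd8a*, *Lck* and *Nkg7* were called lower, and without library 584 *Cd3g* was. The fit without the filter gave *Cd3g*, high in library 583 alone, an edgeR adjusted p of 5.56e-13. A call in that fit need therefore not hold across libraries.

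None of the mast cell proteases passed the threshold with edgeR, DESeq2 or limma-voom. Of the 3, 1, *Mcpt4*, had an unadjusted p under 0.05 with edgeR (0.0408), as did 2983 of all 15075 tested genes. *Cma1* had 50.3, 43.7 and 58.5 CPM in *Tarsl2*+/+ and 37.2, 45.1 and 46.2 CPM in *Tarsl2*-/- muscle. The genotypes overlapped (log2 fold change -0.25, standard error 0.12, edgeR adjusted p = 0.285). *Mcpt4*, another chymase of connective tissue mast cells, and *Cpa3*, their carboxypeptidase, had log2 fold changes of -0.29 and -0.14 (edgeR adjusted p = 0.229 and 0.457). *Cpa3* did not overlap, at 17.8 ± 0.720 and 16.1 ± 1.01 CPM, but its mean in *Tarsl2*-/- muscle was 90.5% of that in *Tarsl2*+/+ muscle. The summed mast cell level was 84.2% of the *Tarsl2*+/+ mean, and its ranges overlapped (99.9 to 122 and 84.3 to 103 CPM). Per length *Cma1* and *Mcpt4* were about as abundant as *Fcer1g*, at 47.4, 41.4 and 50.4 CPM per kilobase in *Tarsl2*+/+ muscle. Whether the mast cell genes differed from the macrophage genes in their change was not tested, since genes are not replicates of a condition.

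The dendritic cell genes were low. *Siglech*, a lectin of plasmacytoid dendritic cells that some tissue macrophages also carry, had 5.26, 2.02 and 2.31 CPM in *Tarsl2*+/+ and 1.78, 1.12 and 1.17 CPM in *Tarsl2*-/- muscle. The ranges were next to each other without overlap, and the log2 fold change of -1.22 (standard error 0.38, edgeR adjusted p = 0.114) was -0.67 without library 583. Without the filter on low counts *Siglech* was called lower, in the same fit that called *Cd3g*. *Flt3*, the receptor that drives dendritic cell development, had 10, 6 and 9 counts against 3 counts in each *Tarsl2*-/- library and was not tested.

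**Figure D3:**
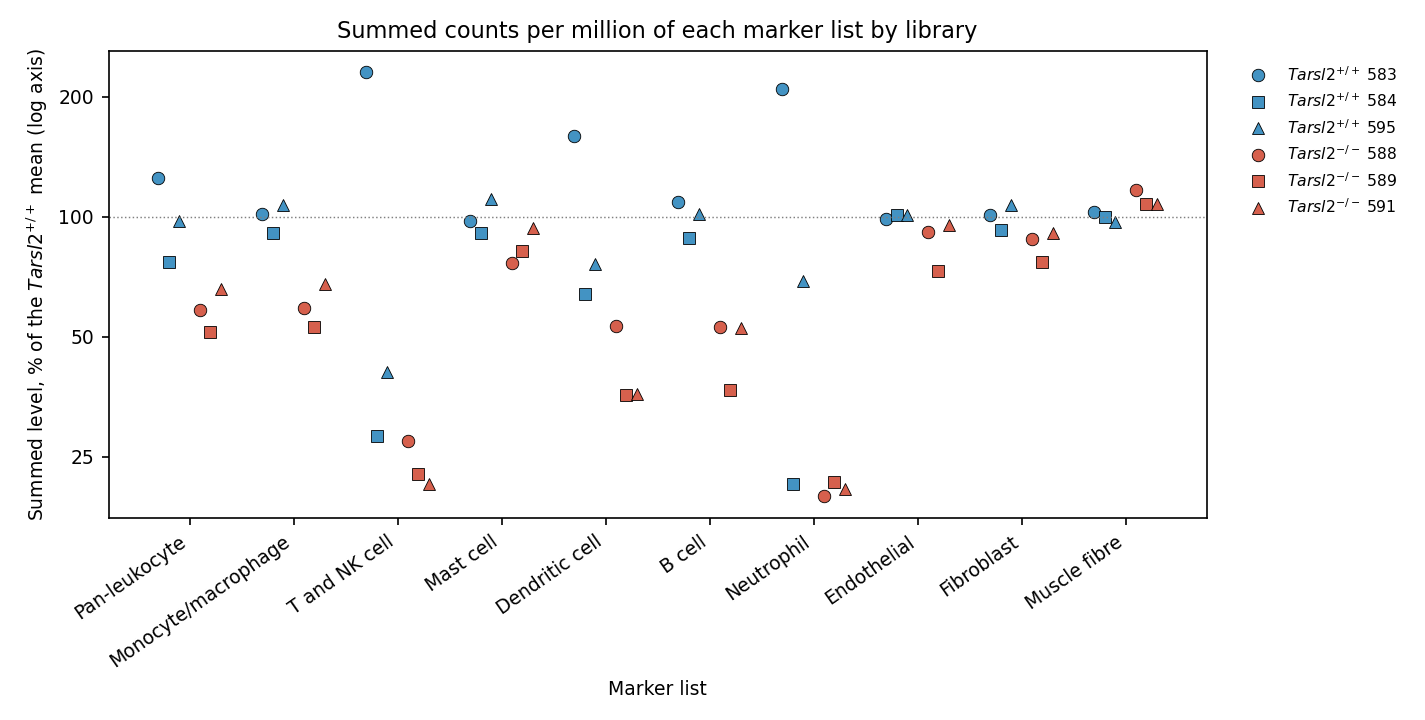
Summed level of each marker list in each library as a percentage of the *Tarsl2*+/+ mean (log axis), for the 5 leukocyte lineages and for B cell, neutrophil, endothelial, fibroblast and muscle fibre markers. The *Tarsl2*-/- libraries lie at 53.1 to 68.0% for monocyte and macrophage genes (*Lyz2* included) and 76.8 to 93.7% for mast cell genes. Library 583 stands at 231% for T and NK cell genes and 209% for neutrophil genes.

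Genes that work with the members were read from lists chosen with earlier results of these data known. Of 113 such genes, 92 were tested, and 14 were lower and none higher at an adjusted p under 0.05 (1.37% of all tested genes were lower), with a median of -0.47. Among 18 further macrophage genes, 4 of 17 tested were lower: *Clec12a*, an inhibitory lectin (8.67 ± 1.78 and 3.17 ± 0.923 CPM, log2 fold change -1.43, edgeR adjusted p = 0.0107), and the 3 chains of complement C1q, *C1qa*, *C1qb* and *C1qc*. The C1q genes had log2 fold changes of -0.63, -0.59 and -0.60 (edgeR adjusted p = 0.0174, 0.019 and 0.0111). Levels of all 3 did not overlap between genotypes, for *C1qc* with 155, 157 and 156 CPM against 103, 91.9 and 114 CPM. Among 20 further pan-leukocyte genes, *Evi2a*, a membrane protein of leukocytes, *Ptpn6*, the phosphatase SHP-1, and *Cd48*, a ligand of lymphocyte receptors, were lower, with log2 fold changes of -0.97, -0.76 and -0.70 (edgeR adjusted p = 0.0126, 0.0204 and 0.0244). *Evi2a* passed in all 6 fits with a library left out. Without library 583 the other 6 missed the threshold, with adjusted p-values of 0.0527 for *Clec12a*, 0.0775, 0.0896 and 0.0525 for *C1qa*, *C1qb* and *C1qc*, 0.062 for *Ptpn6* and 0.118 for *Cd48*. *C1qa*, *Ptpn6* and *Cd48* also missed it without 588, 589 or 595, *C1qb* without 588 or 589, and *Cd48* without 591.

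The signalling lists held fewer calls. Of 10 genes of ITAM signalling, *Clec7a*, the beta-glucan receptor dectin-1, was lower (log2 fold change -0.76, edgeR adjusted p = 0.022), and 8 of 10 did not overlap (12.0% of all tested genes). Its call held without library 584 or 595 and not without 583 (adjusted p = 0.101), 588, 589 or 591. Of 4 further oxidase subunits, *Ncf4* was lower (log2 fold change -0.65, edgeR adjusted p = 0.0439), but in none of the 6 fits with a library left out (adjusted p from 0.0511 to 0.144) and not by DESeq2 (adjusted p = 0.0615). Of 7 cathepsins, *Ctsh* and *Ctsc*, both exopeptidases, were lower, with log2 fold changes of -0.54 and -0.47 (edgeR adjusted p = 0.0235 and 0.0342). Of 6 genes of lipopolysaccharide recognition, *Lbp*, which loads lipopolysaccharide onto CD14, was lower (log2 fold change -0.41, edgeR adjusted p = 0.0472), though not by limma-voom (adjusted p = 0.053). *Ctsh*, *Ctsc* and *Lbp* kept the threshold in 1 of 6 fits with a library left out, the one without 584, with adjusted p-values of up to 0.108, 0.137 and 0.161 in the others. None of 6 ligands and receptors of the colony stimulating factors and fractalkine passed with edgeR or DESeq2. Of these 6, 2 had an unadjusted p under 0.05 with edgeR, as did 2983 of all 15075 tested genes. *Csf1*, the main ligand of *Csf1r*, had 17.5 ± 0.733 and 13.2 ± 1.59 CPM (log2 fold change -0.40, edgeR adjusted p = 0.0851).

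The scarcer lineages gave 2 further calls. Of 11 further dendritic cell genes, 8 were tested and 2 were lower, *Cd209a*, a lectin of monocyte-derived dendritic cells (log2 fold change -1.31, edgeR adjusted p = 0.034), and *Irf8*, a transcription factor of dendritic cells and monocytes (log2 fold change -0.62, edgeR adjusted p = 0.0491). Both held without library 584 and in none of the 5 other such fits (adjusted p up to 0.13 for *Cd209a* and 0.169 for *Irf8*), and *Irf8* was not called by limma-voom (adjusted p = 0.0549). Of 22 further T and NK cell genes, 5 were tested, with a median of -1.34 that was -0.46 without library 583. None of the 5 passed with edgeR, and 2 had an unadjusted p under 0.05 (2983 of all 15075 tested genes did). Of the 22, 19 were highest in library 583. DESeq2 called 1 that edgeR had not tested, *Gzma*, a granzyme of cytotoxic cells (DESeq2 adjusted p = 0.00214). It had 35, 9 and 28 counts in *Tarsl2*+/+ libraries 583, 584 and 595 and 3, 2 and 2 counts in *Tarsl2*-/- muscle, without overlap. Among the 5 tested with edgeR, *Cd2*, a T and NK cell adhesion molecule, had the smallest p (log2 fold change -1.54, edgeR adjusted p = 0.155). Of 9 further mast cell genes, 3 had an unadjusted p under 0.05 with edgeR (2983 of all 15075 tested genes did). None of the 9 passed with edgeR or DESeq2, with a median of -0.11 that became 0.10 without library 584 and 0.11 without 591. *Hdc*, which makes histamine, had the smallest p of these, at 1.60 ± 0.0406 and 2.67 ± 0.660 CPM (log2 fold change 0.74, edgeR adjusted p = 0.139).

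**Figure D4:**
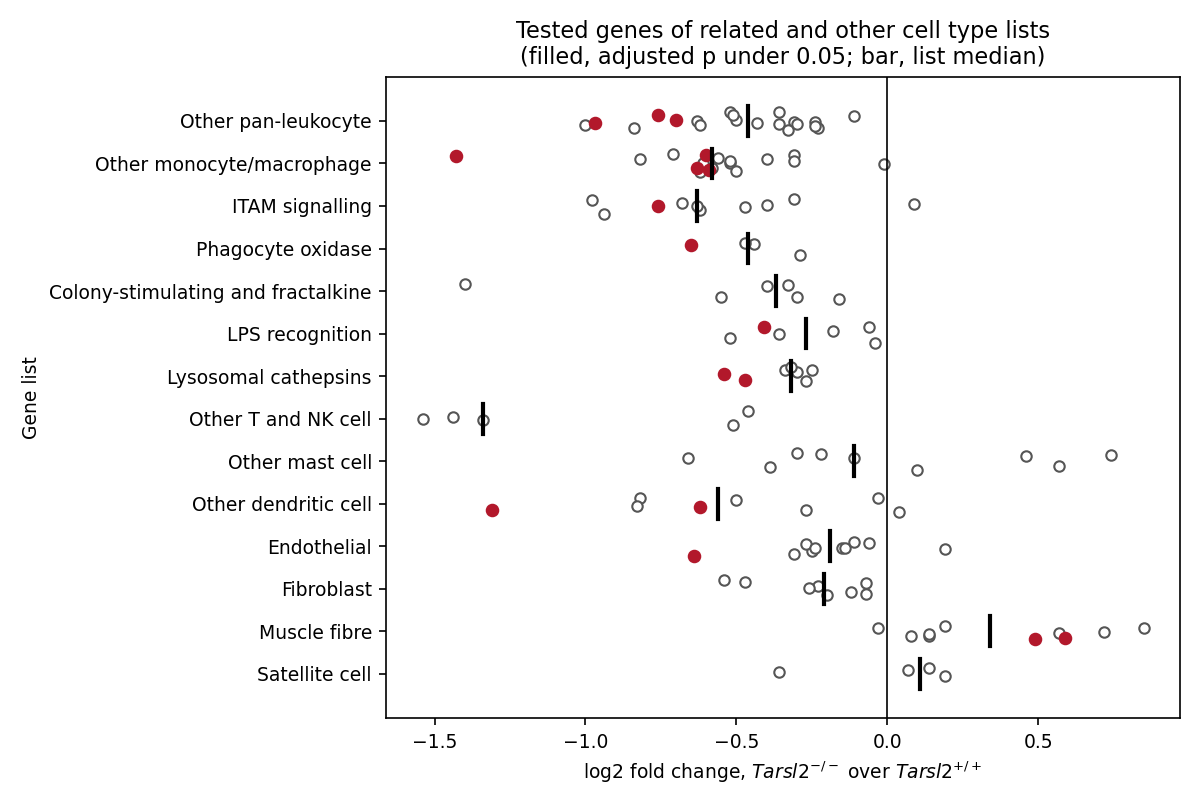
Log2 fold change (*Tarsl2*-/- over *Tarsl2*+/+) of every tested gene of 10 related lists and of endothelial, fibroblast, muscle fibre and satellite cell markers, with the list median as a bar and filled points for an adjusted p under 0.05. The macrophage list has its median at -0.58, the further mast cell list at -0.11, the fibroblast list at -0.21 and the muscle fibre list at 0.34.

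Medians of other cell type lists also moved, in either direction, with few genes past the threshold. The part of these cells in the leukocyte values was not tested. Summed muscle fibre markers were 83300 to 88400 CPM in *Tarsl2*+/+ and 92400 to 100000 CPM in *Tarsl2*-/- muscle, with a median log2 fold change of 0.34 (0.19 without library 589) and 2 of 10 genes higher, *Ckm* and *Myh1*, of which neither was called without 583 or 589. Fibroblast markers had a median of -0.21 (none of 8 past the threshold) and endothelial markers of -0.19 (*Cdh5* alone of 10 lower, not called without library 583, adjusted p = 0.0508), which became -0.13 and -0.10 without library 589, and their summed levels in *Tarsl2*-/- muscle were 85.4% and 86.7% of the *Tarsl2*+/+ mean. The corresponding value was 60.1% for monocyte and macrophage genes (69.5% without *Lyz2*) and 58.5% for pan-leukocyte genes. For the pan-leukocyte genes the *Tarsl2*+/+ libraries themselves lay between 76.9% (584) and 125% (583) of their mean. Haemoglobin and other red cell genes, which rise with blood in the tissue, had a median of -0.87 with none of 7 past the threshold. The median was -0.51 without library 595, 5 of 7 were called lower without 584, and their sum was 4750 to 10400 CPM against 4170 to 4540 CPM. Platelet genes had a median of -0.55, with none of 4 tested past the threshold. Neutrophil genes had a median of -2.29, which was -1.14 without library 583, with none of 4 past the threshold and all 9 overlapping. Without library 584, 4 of 5 tested were called lower, and their sum in *Tarsl2*-/- muscle (7.41 to 8.05 CPM) overlapped that of library 584. Of the B cell genes, *Ighm*, the heavy chain of IgM, was lower, at 84.8, 91.6 and 98.5 CPM against 50.7, 37.4 and 52.3 CPM (log2 fold change -0.97, edgeR adjusted p = 0.00346). Satellite cell, adipocyte and Schwann cell lists gave no call with edgeR or DESeq2, with medians of 0.11, 0.43 and 0.01, and the sums of the last 2 were highest in library 589 (3480 CPM against 1120 to 1810 CPM elsewhere for adipocyte genes, and 105 CPM against 20.3 to 59.1 CPM for Schwann cell genes). Without 589 the adipocyte median was -0.19 and the Schwann cell median -0.95 with 1 gene called lower, and without 583 an adipocyte gene was called lower. DESeq2 called 2 of the fibroblast, 2 of the neutrophil and 1 of the red cell genes lower.

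The median over all tested leukocyte genes moved little with any 1 library, whereas the calls and the medians of the pan-leukocyte and T and NK cell genes moved more. With each library left out in turn, the median of the tested leukocyte genes stayed between -0.71 and -0.55, and no gene was called higher. The number called lower was 1 without library 583 (*Lyz2*), 3 without 595 (*Lyz2*, *Ctss* and *Csf1r*), 4 without 588 or 589 (*Lyz2*, *Ctss*, *Fcgr3* and *Ms4a7* in both), 9 without 591 and 15 without 584. Without library 583 the median over the monocyte and macrophage genes was -0.58, against -0.57 with it. Over the tested T and NK cell genes it was -1.05 with all libraries and between -1.31 (without 588) and -0.52 (without 583) with a library left out.

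**Figure D5:**
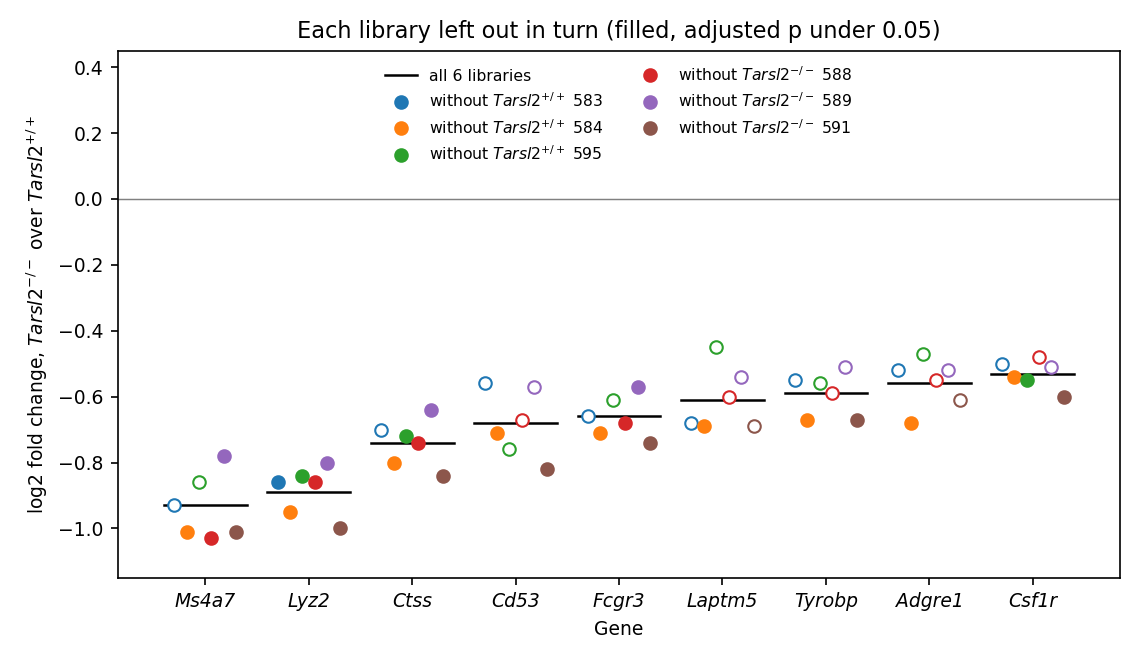
Log2 fold change of the 9 genes past the threshold in the 6 fits that each left out 1 library, with the value from all 6 libraries as a bar and filled points for an adjusted p under 0.05. The values range from -1.03 to -0.45, and *Lyz2* alone is filled in all 6 fits.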

How the data were processed

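Muscle RNA of 3 *Tarsl2*+/+ and 3 *Tarsl2*-/- mice was sequenced as stranded poly(A) libraries and mapped by the authors with HISAT2 to mm10. The authors deposited raw read counts per gene, without normalization. The counting tool, annotation and strand setting are not given in the sources used here, and the submitters' processing notes name Bowtie 0.12.2 and mm8 instead. Table coordinates of 31 of the 36 rows (35 genes, *Itgam* on 2 rows) were identical in GENCODE vM21 on GRCm38.

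Genes were filtered with filterByExpr (minimum count 10, minimum total 15), which left 15075. They were TMM-scaled and tested with edgeR 4.0.16 (quasi-likelihood, 1 term for genotype) under R 4.3.3, with Benjamini-Hochberg adjustment and a threshold of 0.05. Standard errors are the log2 fold change over the square root of F. CPM are TMM-scaled, and levels per kilobase use the gene length in the deposited table. The common biological coefficient of variation was 12.1%. Pairs of libraries of one genotype differed beyond sampling noise, with a chi-square per gene from 13.0 to 28.3. The highest values were those of library 584 with 595 (28.3) and with 583 (16.5). In 3 simulations of 14854 to 14860 genes with 200 changed by a log2 fold change of 1, 73.5% to 82.1% were recovered and 6.49% to 11.2% of calls were false. Smaller changes, such as the leukocyte median of -0.62, were not simulated, nor were effects shared by many genes of a library. Alternatives were DESeq2 1.42.0, limma-voom (limma 3.58.1), other scalings and filters, and each library left out.

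The genes and lists were chosen with earlier results of these data known. Per-library values are given for genes past the threshold and the most abundant per length in each lineage, with others chosen for their role after their values were seen. From related lists, genes past the threshold are named (at most 4), or else that with the smallest p. *Spi1* was added for its motif, *Ccr2* as a monocyte gene and *Gzma* for its DESeq2 call.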

Additional observations from a re-analysis of the deposited data

How the results depend on the processing

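No paired analysis was possible because the numbers in the labels are not shared between the genotypes. The median log2 fold change of the tested leukocyte genes kept its sign under all alternatives, and no leukocyte gene was called higher under any. That median moved by less than 0.154. This is the pooled SD, within genotype, of the median log2 level of these genes in each library, and not an error of the fold change. All 9 genes past the threshold stayed past it with DESeq2, limma-voom, RLE factors, upper quartile scaling and both other filters. The number of leukocyte genes called lower was 9 to 10 under 4 of these, 15 with DESeq2 (4 adjusted p-values not given) and 23 without a filter beyond 1 count in any library, and from 1 to 15 with a library left out. The unfiltered fit gave *Cd52*, which overlapped between genotypes, an edgeR adjusted p of 4.86e-17, against 0.0766 with the filter. The further calls of that fit are thus not read as support. The number of all genes called was 342, against 671 with DESeq2, 1437 without the filter and 81 to 625 with a library left out. Of the related lists, 14 genes were lower, against 26 with DESeq2, 54 without the filter and 1 to 28 with a library left out, lowest without library 583 and highest without 584. The cause of these changes was not tested. *Tarsl2* stayed between -3.91 and -3.69. With counts as low as those of *Itgax*, *Ly6c2*, *Flt3* and the T and NK cell genes, depth limited what could be tested.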
